A study of Mus musculus with 12 samples.

Results

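The glucocorticoid receptor gene Nr3c1, the cortisone reductase gene Hsd11b1 and 8 genes that glucocorticoids are known to induce (Fkbp5, Tsc22d3, Zbtb16, Klf9, Sgk1, Pdk4, Mt1 and Mt2) were followed across 12 RNA-seq libraries of mouse bone marrow mesenchymal stem cells (MSCs). These 10 genes were picked by name from 54532 listed genes, because both culture media contained the synthetic glucocorticoid dexamethasone. The choice was made with their differences between genotypes in both media known, so those differences are described here without a test. All 10 were found, and 9 of them reached 1 FPKM in at least 3 libraries, as did 12871 genes in all. FPKM counts fragments per kilobase of exon with the sequencing depth divided out, so that levels of different genes can be set beside each other.

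MSCs were flushed from the long bones of 4-week-old C57BL/6 mice and used at passage 3. Control cells were Chd7fl/fl (labelled WT) and the others were Prx1-cre;Chd7fl/fl (labelled KO), in which Cre driven by a limb mesenchyme promoter deletes exon 2 of the chromatin remodeler gene Chd7 in cells of that lineage, while other cells of the marrow keep it. RNA was taken 5 days after induction. Osteogenic medium held 10 nM dexamethasone, 50 µM ascorbic acid and 10 mM β-glycerophosphate, and adipogenic medium held 1 µM dexamethasone, 10 µg/ml insulin and 0.5 µM isobutylmethylxanthine. The media thus differed in the dose of dexamethasone and in every other additive, and these cannot be told apart. Each of the 4 groups had 3 libraries, and the labels do not say whether these came from separate animals, so p-values measure the spread between these libraries, which may be technical.

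Dexamethasone and corticosterone cross the cell membrane and bind the receptor encoded by Nr3c1, which waits in the cytoplasm in a complex with HSP90 and its cochaperones. The bound receptor moves to the nucleus and activates or represses genes, often from paired half-sites in DNA. Hsd11b1 encodes the enzyme that regenerates active hormone from its inert form. In skeletal cells glucocorticoid is needed for osteogenic and adipogenic differentiation in culture, while an excess in the body thins bone and enlarges marrow fat.

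Between 17490793 and 21093448 fragments on genes were recovered per library, and 3 fragments on a gene of 1 kilobase corresponded to 0.143 to 0.185 FPKM. Chd7 stood at 2.64 to 2.77 FPKM in the control and 2.03 to 2.35 FPKM in the osteogenic knockout libraries. In adipogenic medium, its 2.03 to 2.48 FPKM in the libraries labelled knockout was not below the 1.81 to 2.26 FPKM of the controls, so directions in that medium rest on the labels. A gene-level value includes exons outside the deleted one. In adipogenic medium 2 libraries stood apart from their groups. Control library 2 correlated with its group at 0.939 and 0.943 against 0.989 between the other two, and knockout library 1 at 0.980 and 0.981 against 0.992 (Pearson r on log2(FPKM + 1)). Standard errors and limma tests below used 1 spread per gene shared by all 4 groups, unless a fit to fewer libraries is named. With it 16.7% of genes were called higher in knockout adipogenic libraries, against 7.87% with the 6 adipogenic libraries alone. In osteogenic medium these shares were 4.94% and 13.0%. Shared-fit p-values can thus be too small in adipogenic and too large in osteogenic medium. All 10 macrophage markers examined were expressed at a level that could be tested, and their summed level was 10554 to 10966 FPKM in control and 12433 to 12662 FPKM in the osteogenic knockout libraries. Under adipogenic induction it was 16488, 7013 and 16918 FPKM in the controls and 6338, 4932 and 5090 FPKM in the knockout libraries. Of 7 adipocyte markers only Fabp4 was tested, and Adipoq, Plin1, Lep, Cidec, Cfd and Retn had group means of at most 0.36 FPKM. Among stromal markers Prrx1, Pdgfrb and Itgb1 were expressed, whereas Thy1 and Lepr had group means of only 0.372 to 1.04 FPKM. In bulk RNA, fewer cells of a type and less RNA per cell cannot be told apart.

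A complete palindromic core of the glucocorticoid response element, spelled GNACANNNTGTNC on either strand, was searched in the 250 bases before each start site that RefSeq gives on GRCm38.p6. It occurred in 127 of 32851 windows (0.39%). Of the members, 8 had windows, 15 in all, and the core was found in 1 window of Sgk1 and in that of Mt1. These stretches are shown because they are the member promoters with a full core, and the core is in capitals.
Sgk1, chr10:21993642-21993789, plus strand: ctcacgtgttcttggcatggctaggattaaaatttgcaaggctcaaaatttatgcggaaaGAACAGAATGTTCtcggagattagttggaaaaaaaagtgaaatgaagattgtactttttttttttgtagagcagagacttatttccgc
Mt1, chr8:94178935-94179078, plus strand: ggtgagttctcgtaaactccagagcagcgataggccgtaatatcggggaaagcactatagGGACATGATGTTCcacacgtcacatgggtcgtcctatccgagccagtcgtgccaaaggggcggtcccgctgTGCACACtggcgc
The core GAACAGAATGTTC began 188 bases before an internal start site of Sgk1, and GGACATGATGTTC began 94 bases before that of Mt1. The second run of capitals in the Mt1 stretch, TGCACAC, matches the metal response element core (TGCACNC or TGCGCNC on either strand), which 21.41% of all windows held. Mt2 held 3 such metal cores, as many or more than which were found in 1.263% of windows, and no glucocorticoid core. No full core lay in these windows of Fkbp5, Tsc22d3, Klf9, Pdk4, Hsd11b1 or Mt2, which says only that the letters were not there. A match is a description of letters and not a bound site.

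Nr3c1 (ENSMUSG00000024431, chromosome 18, 39410545 to 39519421 on GRCm38, minus strand) encodes the receptor itself. Its level was 10.2, 10.8 and 9.95 FPKM in the osteogenic controls and 9.87, 10.9 and 9.98 FPKM in the osteogenic knockout libraries, and these overlapped. In adipogenic medium the controls had 11.7, 11.0 and 11.3 FPKM and the knockout libraries 9.04, 9.40 and 8.34 FPKM, all below every control. The difference on the log2(FPKM + 1) scale, knockout minus control, was -0.01 (SE 0.0556) in osteogenic and -0.32 (SE 0.0556) in adipogenic medium, that is a 1.27-fold lower mean in the latter. Rescaling every library to the same FPKM sum (TPM) moved this value to -0.14, since it also moved the median of all genes from -0.0145 to 0.138. Receptor mRNA spanned 8.34 to 11.7 FPKM over the 12 libraries, the smallest ratio of highest to lowest level among the 10 genes.

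Hsd11b1 (ENSMUSG00000016194, chromosome 1, 193221634 to 193264075, minus strand) was low in all libraries, with 16 to 71 fragments each, and did not reach the level for testing. Its level was 0.298, 0.224 and 0.333 FPKM in the osteogenic controls and 0.733, 0.546 and 0.413 FPKM in the osteogenic knockout libraries, where the groups did not overlap. In adipogenic medium the controls, at 1.02, 0.337 and 0.813 FPKM, spanned the knockout libraries at 0.701, 0.761 and 0.594 FPKM. Its group means ran from 0.722 FPKM in control adipogenic libraries, through 0.686 and 0.564 FPKM in knockout adipogenic and knockout osteogenic libraries, down to 0.285 FPKM in control osteogenic libraries, and only the last 2 of these neighbours were apart.

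Fkbp5 (ENSMUSG00000024222, chromosome 17, 28399094 to 28517527, minus strand) encodes FKBP51, an HSP90 cochaperone that lowers the receptor's affinity for hormone and so forms a feedback loop. In osteogenic medium it stood at 30.6, 32.6 and 31.3 FPKM in control and at 6.90, 6.29 and 6.19 FPKM in knockout libraries. In adipogenic medium the order was the other way round, with 3.91, 5.46 and 3.69 FPKM in control and 29.9, 42.8 and 41.9 FPKM in knockout libraries. The knockout mean was 4.88-fold lower in osteogenic medium (6.46 ± 0.384 against 31.5 ± 1.01 FPKM, SD, n = 3) and 8.78-fold higher in adipogenic medium (38.2 ± 7.19 against 4.35 ± 0.961 FPKM). On the log2 scale these were -2.13 and 2.87 (SE 0.144 each), which differ by 5.00. The control osteogenic and knockout adipogenic libraries overlapped, and both lay far above the other two groups.

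**Figure D1:**
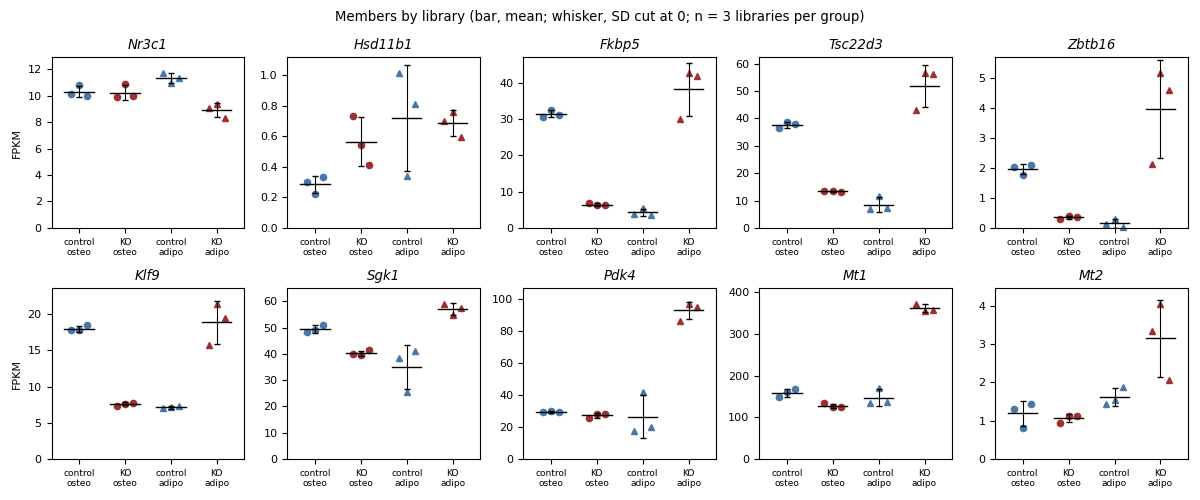
FPKM (linear axis from 0) of each of the 10 genes in 12 libraries, by genotype (blue, control; red, knockout, KO) and medium (circles, osteogenic; triangles, adipogenic); bars are means and whiskers the SD of 3 libraries. Fkbp5, Tsc22d3, Zbtb16 and Klf9 were high in control osteogenic and knockout adipogenic libraries and low in the other groups, Pdk4 and Mt1 were high in knockout adipogenic libraries, and Nr3c1 kept between 8.34 and 11.7 FPKM.

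Tsc22d3 (ENSMUSG00000031431, chromosome X, 140539528 to 140600659, minus strand) encodes GILZ, a leucine zipper protein that mediates anti-inflammatory actions of glucocorticoids. Its level was 36.4, 38.5 and 38.1 FPKM in control and 13.3, 13.7 and 13.2 FPKM in the osteogenic knockout libraries. Under adipogenic induction it was 6.74, 11.7 and 7.08 FPKM in control and 43.1, 56.6 and 56.1 FPKM in knockout libraries. The groups did not overlap in either medium, and the knockout mean was 2.81-fold lower in osteogenic and 6.10-fold higher in adipogenic medium, with log2 differences of -1.43 and 2.50 (SE 0.169 each).

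Zbtb16 (ENSMUSG00000066687, chromosome 9, 48654297 to 48836222, minus strand) encodes the zinc finger repressor PLZF, which takes part in osteogenic differentiation. It was the lowest of the strongly varying genes, at 2.02, 1.77 and 2.09 FPKM in the osteogenic controls and 0.284, 0.408 and 0.353 FPKM in the osteogenic knockout libraries. In adipogenic medium the controls had 0.127, 0.298 and 0.0234 FPKM, the last from 2 fragments, and the knockout libraries 2.12, 5.16 and 4.59 FPKM. The knockout mean was 5.62-fold lower in osteogenic medium. Under adipogenic induction it was 26.5-fold higher, a ratio against a control mean of 0.150 ± 0.139 FPKM (SD, n = 3) and so of low precision. The log2 differences of -1.13 and 2.05 (SE 0.215 each) understate these ratios because 1 was added to each FPKM, and with 0.1 added they were -2.21 and 4.09.

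Klf9 (ENSMUSG00000033863, chromosome 19, 23141226 to 23168134, plus strand) encodes a Krüppel-like factor induced by glucocorticoid and thyroid hormone. Its 3 control libraries in osteogenic medium had 17.8, 17.8 and 18.5 FPKM and the knockout libraries 7.39, 7.62 and 7.79 FPKM. In adipogenic medium the controls had 6.97, 7.12 and 7.36 FPKM and the knockout libraries 15.7, 21.5 and 19.5 FPKM. The knockout mean was 2.37-fold lower and then 2.64-fold higher, with log2 differences of -1.15 and 1.28 (SE 0.0881 each). Control library 2 in adipogenic medium, which stood apart over all genes and had less macrophage signal than the other controls, had a Klf9 level between theirs.

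Sgk1 (ENSMUSG00000019970, chromosome 10, 21882184 to 21999903, plus strand) encodes a kinase of ion transport and cell survival. It varied less, with 48.3, 48.9 and 51.0 FPKM in the osteogenic controls and 39.8, 39.7 and 41.4 FPKM in the osteogenic knockout libraries. The adipogenic controls had 38.3, 25.6 and 41.1 FPKM and the knockout libraries 59.1, 54.9 and 57.3 FPKM. The groups did not overlap in either medium, and the knockout mean was 1.23-fold lower in osteogenic and 1.63-fold higher in adipogenic medium (log2 -0.29 and 0.72, SE 0.136 each). The low value of 25.6 FPKM was in control library 2, and without it and knockout library 1 the adipogenic difference was 0.49.

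Pdk4 (ENSMUSG00000019577, chromosome 6, 5483351 to 5496309, minus strand) encodes the kinase that switches off pyruvate dehydrogenase, and it responds to glucocorticoid, fasting and fatty acids. In osteogenic medium it had 29.1, 30.2 and 29.0 FPKM in control and 25.6, 28.2 and 27.8 FPKM in knockout libraries, a 1.08-fold lower mean with ranges that did not overlap. In adipogenic medium it had 17.4, 42.0 and 19.9 FPKM in control and 86.3, 96.8 and 94.8 FPKM in knockout libraries, a 3.50-fold higher mean. The log2 differences were -0.11 and 1.88 (SE 0.246 each). Control library 2 again stood out, this time above its group, and without it and knockout library 1 the adipogenic difference was 2.30.

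Mt1 (ENSMUSG00000031765, chromosome 8, 94179082 to 94180327, plus strand) encodes metallothionein 1, a zinc and copper binding protein induced by metals and by glucocorticoid. It was the most abundant member, at 148, 160 and 167 FPKM in the osteogenic controls and 133, 125 and 125 FPKM in the osteogenic knockout libraries. In adipogenic medium it had 135, 170 and 136 FPKM in control and 372, 356 and 357 FPKM in knockout libraries. The knockout mean was 1.24-fold lower and 2.46-fold higher, with log2 differences of -0.31 and 1.30 (SE 0.0849 each).

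Mt2 (ENSMUSG00000031762, chromosome 8, 94172664 to 94173568, plus strand), its neighbour and paralog, was recorded at only 0.809 to 4.06 FPKM, from 8 to 45 fragments. Of its 588 annotated exonic bases, 432 (73.5%) are shared with the antisense gene Gm45774, which was at 0.021 to 0.178 FPKM, and the sources used here do not say whether strand was used in counting. Its level is therefore uncertain. The control and knockout libraries overlapped in osteogenic medium. In adipogenic medium the controls had 1.45, 1.54 and 1.89 FPKM and the knockout libraries 3.35, 4.06 and 2.06 FPKM, a 1.94-fold higher mean (log2 0.63, SE 0.175).

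Across the 10 genes, 7 were lower in knockout libraries without overlap in osteogenic medium and 1 was higher, against 23.2% lower and 21.0% higher of all genes tested. In adipogenic medium 8 were higher without overlap and 1 lower, against 20.2% higher and 18.4% lower of all genes tested. The 7 genes Fkbp5, Tsc22d3, Zbtb16, Klf9, Sgk1, Pdk4 and Mt1 did both, that is lower in osteogenic but higher in adipogenic medium, as 4.00% of all genes tested did. Because the genes were selected on these differences, nothing is read from these shares. The median difference of the 9 genes tested was -0.31 in osteogenic and 1.30 in adipogenic medium, and over all genes tested it was -0.0064 and -0.0145. Both TPM scaling and a limma voom fit to recovered fragments kept the direction of these 7 in both media. Within the knockout cells, 8 genes were at a higher mean in adipogenic than in osteogenic medium by 0.49 to 2.38 on the log2 scale, Hsd11b1 was higher by 0.11, and Nr3c1 was lower by 0.18. Within the control cells Fkbp5, Tsc22d3, Klf9 and Zbtb16 were lower by 1.22 to 2.62 in adipogenic medium, which had the higher dexamethasone dose, and Sgk1 was lower by 0.51.

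**Figure D2:**
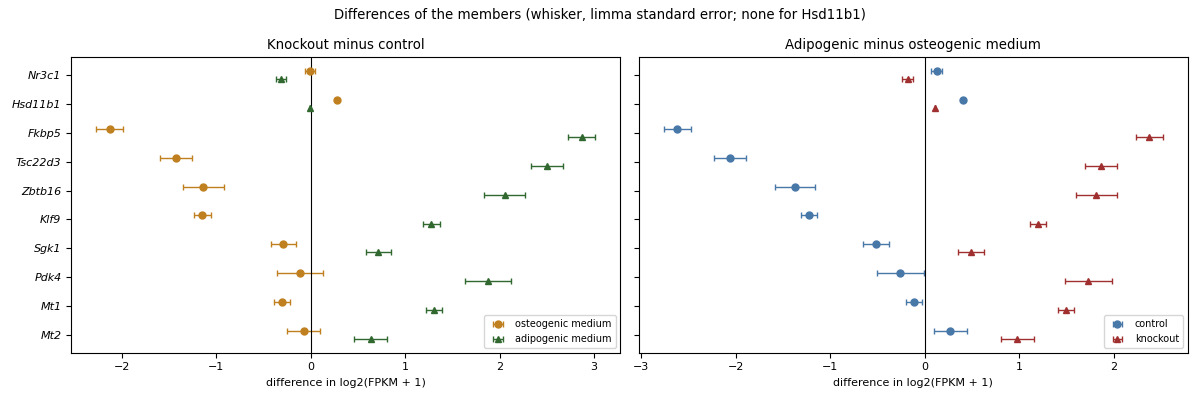
Differences in log2(FPKM + 1) of the 10 genes, knockout minus control in each medium (left) and adipogenic minus osteogenic medium in each genotype (right), with limma standard errors (3 libraries per group; none for the untested Hsd11b1). Fkbp5 lies at -2.13 and 2.87 on the left and at -2.62 and 2.38 on the right, and Nr3c1 stays within 0.32 of 0 throughout.

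The difference between the media averaged over both genotypes is not one of the genotype differences known when the genes were chosen. It was tested for the 9 genes. The average uses the same group means as those differences, and earlier results of these data were known. Its p-values are therefore descriptive and no independent evidence. Pdk4, Mt1 and Mt2 were higher in adipogenic medium on this average, by 0.74 (SE 0.174, limma adjusted p = 0.0111), 0.69 (SE 0.0601, limma adjusted p = 5.8e-05) and 0.63 (SE 0.124, limma adjusted p = 0.00487). Of all genes tested, 14.9% were called higher and 16.5% lower in this comparison. For Pdk4 and Mt1 the average came from the knockout cells, since in control cells the libraries of the media overlapped for both. The other 6 did not pass the test, with averages of -0.12 for Fkbp5 (SE 0.102, limma adjusted p = 0.393), -0.10 for Tsc22d3 (SE 0.119), 0.22 for Zbtb16 (SE 0.152), -0.01 for Klf9 (SE 0.0623), -0.01 for Sgk1 (SE 0.0960) and -0.03 for Nr3c1 (SE 0.0393). For Fkbp5, Tsc22d3, Zbtb16, Klf9 and Sgk1 these averages near 0 combine differences of opposite sign in the genotypes. Without control library 2 of the adipogenic medium 5 genes passed, 4 higher and 1 lower, with Tsc22d3 lower by 0.21 (limma adjusted p = 0.0237) and Sgk1 higher by 0.09 (limma adjusted p = 0.0311). That library was known to stand apart, so nothing is read from the added calls.

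Over the 12 libraries, Pearson r on log2(FPKM + 1) was 0.989 between Fkbp5 and Tsc22d3, 0.988 between Fkbp5 and Klf9 and 0.960 between Fkbp5 and Zbtb16, but 0.404 between Fkbp5 and Mt2. Pdk4 and Mt1 were closer to each other (0.955) than to Fkbp5 (0.691 and 0.710). These points share libraries and group means, so the values only describe the pattern. Of all genes tested, the 5 closest to Fkbp5 were Wnk1 (0.990), Tsc22d3, Sult1a1 (0.988), Klf9 and Klhl6 (0.987), and Wnk1 ran from 24.0 FPKM in control adipogenic to 53.7 FPKM in knockout adipogenic libraries. The 5 closest to Nr3c1 were Mdm4 (0.978), Ddx5, Zfp992, Ddx39b and Khdrbs1 (0.932). For Hsd11b1 they were Bmp1 (0.928), Relt, Itga11, Mmp2 and Tmem39a (0.919).

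A further 30 glucocorticoid-induced genes were listed from general knowledge to describe the pattern beyond the members, and 23 of them were tested. Earlier results of these data were known when they were listed, so the counts and p-values are no independent check. In osteogenic medium 3 were lower and 2 higher in knockout libraries by limma, against 4.15% lower and 4.94% higher of all genes tested. In adipogenic medium 12 were higher and 1 lower, against 16.7% higher and 16.5% lower of all genes tested. The interaction, which asks whether the genotype difference depended on the medium, was positive for 10 and negative for 2, against 10.9% and 9.58% of all genes tested. The median difference was -0.04 in osteogenic and 0.20 in adipogenic medium. Per1, Dusp1, Cebpd and Errfi1 had been seen in an earlier analysis of these data and are no independent evidence, and without these 4 the counts among 19 genes were 1 lower and 2 higher in osteogenic, and 9 higher and 1 lower in adipogenic medium.

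Per1 and Sult1a1 passed in both media with the opposite sign. Per1, a clock gene that the receptor induces directly, had 15.1, 15.2 and 15.3 FPKM in the osteogenic controls and 6.54, 6.34 and 5.96 FPKM in the osteogenic knockout libraries, and 8.64, 5.95 and 8.22 against 16.1, 20.1 and 19.9 FPKM in adipogenic medium. Its log2 difference was -1.16 (SE 0.119, limma adjusted p = 0.000398) and then 1.20 (SE 0.119, limma adjusted p = 7.4e-05). Sult1a1, a sulfotransferase, had 5.20, 5.64 and 5.44 FPKM in the osteogenic controls and 1.03, 1.47 and 1.20 FPKM in the osteogenic knockout libraries, and 0.808, 1.55 and 0.737 against 4.42, 6.34 and 5.80 FPKM in adipogenic medium. Its difference was -1.53 and then 1.69 (SE 0.154 each, limma adjusted p = 0.000396 and 4.7e-05). In neither gene did the knockout and control libraries overlap in either medium. Dusp1, a phosphatase that dampens MAP kinases, was lower by 0.26 (limma adjusted p = 0.0278) and then higher by 0.54 (limma adjusted p = 0.000191), although with TPM scaling the former did not pass (limma adjusted p = 0.0578).

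Other genes rose in knockout cells in adipogenic medium without passing as lower in osteogenic medium in the fit to all libraries, although Ddit4, Irs2 and Cdkn1c passed as lower when the 6 osteogenic libraries were fitted alone. Anxa1, which encodes the anti-inflammatory protein annexin A1, had 229, 228 and 224 FPKM in the osteogenic controls and 226, 230 and 224 FPKM in the osteogenic knockout libraries (difference -0.0016, SE 0.0432). In adipogenic medium it had 235, 250 and 235 FPKM in control and 394, 424 and 422 FPKM in knockout libraries, a rise of 0.78 (limma adjusted p = 2.2e-06). Ddit4, an inhibitor of mTORC1, had 42.5, 39.2 and 41.7 FPKM in the osteogenic controls and 24.2, 21.5 and 24.2 FPKM in the osteogenic knockout libraries, which did not overlap (difference -0.80, limma adjusted p = 0.000245 in the osteogenic libraries alone). In adipogenic medium its difference was 0.78 (limma adjusted p = 0.0311), but control and knockout libraries overlapped and it did not pass in the adipogenic libraries alone (limma adjusted p = 0.146). Irs2, an insulin receptor adaptor, rose by 0.95 in adipogenic medium (limma adjusted p = 0.00233), with -0.22 in osteogenic medium (limma adjusted p = 0.00499 in those libraries alone). Glul, glutamine synthetase, rose by 0.43 (limma adjusted p = 0.00471). Cdkn1c, a cell cycle inhibitor gene, stood at -0.55 in osteogenic medium (limma adjusted p = 0.00587 in those libraries alone). In adipogenic medium Cdkn1c, Foxo1, Errfi1 and Arrdc2 rose by 0.20 to 0.66. Nedd9 rose in both media, by 0.33 (limma adjusted p = 0.0278) and 0.72 (limma adjusted p = 0.000139), although with TPM scaling the former did not pass (limma adjusted p = 0.176).

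Against that direction, Fbxo32, an atrophy-related ubiquitin ligase, was higher by 0.49 in osteogenic medium (limma adjusted p = 0.0416), with -0.35 in adipogenic medium (limma adjusted p = 0.0613). Angptl4, a lipoprotein lipase inhibitor, was lower by 0.72 in adipogenic medium (limma adjusted p = 0.0151). The remaining 9 genes passed in neither medium in the fit to all libraries (Cebpb, Cebpd, Nfkbia, Rgs2, Lcn2, Tnfaip3, Zfp36, Bcl6 and Foxo3), and several of them had a wide spread in adipogenic medium, such as Cebpb at -1.04 (SE 0.497). Fitted to the 6 adipogenic libraries alone, 6 of the 23 genes passed, all higher (Per1, Dusp1, Anxa1, Irs2, Nedd9 and Sult1a1), against 7.87% higher and 5.11% lower of all genes tested. Fitted to the 6 osteogenic libraries alone, 9 passed as lower and 3 as higher, against 13.5% lower and 13.0% higher of all genes tested. Besides the genes above, these 9 held Nfkbia, which encodes the NF-κB inhibitor IκBα, with 37.8, 38.8 and 42.1 FPKM in control and 22.0, 23.4 and 22.6 FPKM in knockout libraries (difference -0.78, limma adjusted p = 0.000158). They also held Cebpb at -0.29 and Zfp36 at -0.23 (limma adjusted p = 0.00817 and 0.0113). Without the libraries that stood apart 22 genes were tested, and 10 were lower and 3 higher in osteogenic medium, against 14.4% lower and 13.9% higher of all genes tested. In adipogenic medium 14 were then higher and 7 lower, against 25.2% higher and 26.7% lower.

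**Figure D3:**
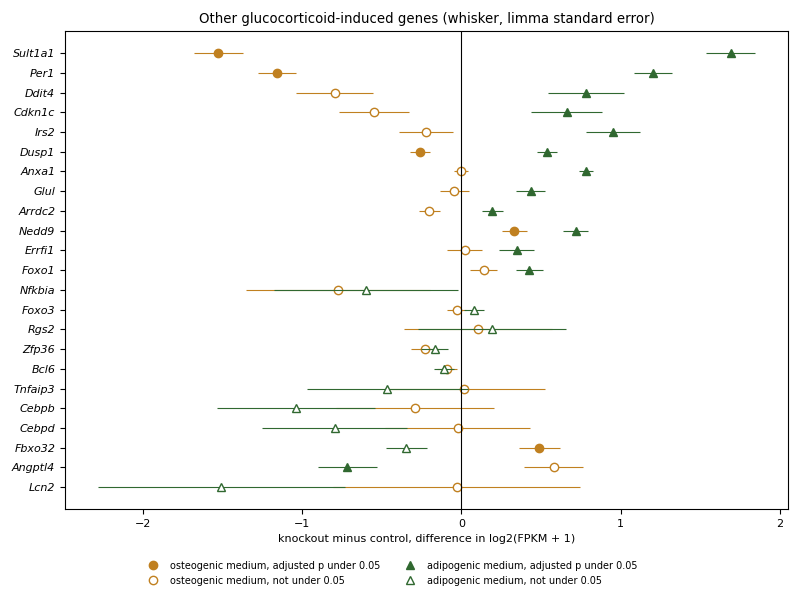
Knockout minus control difference in log2(FPKM + 1), with limma standard errors, for the 23 other glucocorticoid-induced genes tested, ordered by how far the media differed (circles, osteogenic; triangles, adipogenic; filled, adjusted p under 0.05). Sult1a1 and Per1 at the top lie on opposite sides of 0 in the media, and 12 genes have a filled triangle above 0.

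Of 13 paralogs of the members, 9 were tested. Klf13, the closest relative of Klf9, had 19.0, 20.2 and 20.0 FPKM in the osteogenic controls and 12.5, 11.3 and 11.9 FPKM in the osteogenic knockout libraries, and 12.8, 11.6 and 13.2 against 18.3, 19.3 and 19.6 FPKM in adipogenic medium. It was lower by 0.69 (SE 0.0561, limma adjusted p = 0.000104) and then higher by 0.57 (SE 0.0561, limma adjusted p = 7.4e-05), and passed in both media under TPM scaling and voom as well. Tsc22d1 and Tsc22d2 were higher in adipogenic medium by 0.28 and 0.25 (limma adjusted p = 0.0137 and 0.0347), where Sgk3 and Pdk1 were lower by 0.49 and 0.86 (limma adjusted p = 0.0113 and 0.00603). Tsc22d4, Pdk2, Pdk3 and Fkbp4 passed in neither medium. Nr3c2, the mineralocorticoid receptor gene, which also binds glucocorticoid, was near the floor with 2 to 19 fragments per library, and Hsd11b2, whose enzyme inactivates the hormone, had 4 to 13.

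The receptor's chaperones were all 12 well expressed. In osteogenic medium 0 of them passed by limma, 3 had an unadjusted p under 0.05, all higher, and voom called 2, both higher, against 4.09% higher and 3.12% lower of all genes by voom. Fitted to the 6 osteogenic libraries alone 6 passed as higher (13.0% of all genes did), and without the libraries that stood apart 7 did (13.9%). In adipogenic medium 4 passed as lower in knockout libraries, against 16.5% of all genes tested, namely Hsp90ab1 by 0.33 (limma adjusted p = 0.0082), Hspa8 by 0.30 (limma adjusted p = 0.0169), Dnaja1 by 0.27 (limma adjusted p = 0.0279) and Ptges3, the p23 cochaperone, by 0.55 (limma adjusted p = 0.00173). With TPM scaling only Ptges3 of these passed, at -0.37 (limma adjusted p = 0.0441), and 1 other chaperone passed as higher, against 25.3% higher and 6.96% lower of all genes (in osteogenic medium 2.13% and 1.95%). Voom called 2 higher and 3 lower, against 27.1% and 8.75% of all genes. Fitted to the 6 adipogenic libraries alone, only Ptges3 passed, as lower (limma adjusted p = 0.0191), against 5.11% lower of all genes tested. The median over the 12 was -0.0928 as fitted, 0.0848 with TPM and 0.0453 with voom, so no direction is given for the chaperones in adipogenic medium. Hsp90ab1 had 638, 521 and 619 FPKM in control and 496, 458 and 460 FPKM in knockout libraries, so the groups did not overlap. Of 12 coregulators, the chromatin ATPase Smarca4 was lower in adipogenic medium by 0.16 (limma adjusted p = 0.0182), but TPM scaling placed it at 0.02 and called 3 others higher, so no direction is given for this list. In osteogenic medium 0 coregulators passed by limma, with 7 at an unadjusted p under 0.05 (2 higher and 5 lower). Voom called 1, as lower, against 3.12% lower of all genes by voom. Fitted to the 6 osteogenic libraries alone 4 were lower, against 13.5% of all genes tested. Of 10 genes of steroid handling 4 were tested. H6pd, which supplies cofactor to the Hsd11b1 enzyme, stood at 22.6 to 38.0 FPKM with -0.11 and -0.09 (limma adjusted p = 0.734 and 0.674), and the efflux pump gene Abcb1a was lower in adipogenic medium by 0.32 (limma adjusted p = 0.0157), which did not pass with TPM scaling (limma adjusted p = 0.0692).

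Among 14 tested genes that glucocorticoids are known to repress, 0 passed in osteogenic medium by limma, with 1 at an unadjusted p under 0.05 and 0 called by voom. Fitted to the 6 osteogenic libraries alone, however, 6 were higher (Ptgs2, Mmp9, Lif, Tnf, Vcam1 and Icam1), by 0.17 to 0.74, against 13.0% of all genes. In adipogenic medium 4 were lower in knockout libraries, against 16.5% of all genes tested, with a median of -1.37 over the list. Ptgs2, the inducible cyclooxygenase, was lower by 1.00 (limma adjusted p = 0.0187), the cytokine gene Il11 by 1.07 (limma adjusted p = 0.00894), Mmp9 by 0.79 (limma adjusted p = 0.0398) and Il6 by 2.42 (limma adjusted p = 0.0468). Voom called 2 lower and 1 higher, against 8.75% lower and 27.1% higher of all genes by voom. Mmp9 and Il6 did not pass by it (limma adjusted p = 0.0852 and 0.206). Il6 had 23.4, 0.807 and 25.8 FPKM in the adipogenic controls and 2.02, 0.590 and 0.607 FPKM in the knockout libraries, so control library 2 was on the side of the knockout libraries. Tnf had 151, 13.6 and 134 FPKM in these controls and 71.8, 3.72 and 3.66 FPKM in the knockout libraries, and did not pass (limma adjusted p = 0.0998). Fitted to the 6 adipogenic libraries alone, 0 of the 14 passed, against 5.11% lower of all genes tested. Without the libraries that stood apart 10 of 11 tested were lower, against 26.7% of all genes tested in that fit. That fit was added after the data were seen. Of the other genes of metal response 4 were tested. The zinc exporter Slc30a1, like Mt1 a target of the zinc sensor MTF1, was lower in knockout libraries in adipogenic medium by 0.44 (limma adjusted p = 0.00188; -0.27 with TPM scaling, limma adjusted p = 0.0959), and Mtf1, Slc39a10 and Slc39a14 did not pass between genotypes in either medium.

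The macrophage markers also differed between genotypes, and their part in the differences of the members was not tested. The summed macrophage markers were higher in every knockout than in every control library in osteogenic medium. In adipogenic medium the sum was lower in every knockout than in every control library. The sum and Fkbp5 thus ran in opposite directions in both media. Most of the sum was Lyz2, with means of 9182 FPKM in osteogenic control and 11113 FPKM in osteogenic knockout libraries. The higher sum in osteogenic knockout libraries was therefore that of Lyz2. The next largest markers had lower means there, Cd68 at 820 against 890 FPKM and Csf1r at 187 against 301 FPKM in control. Mrc1 and Aif1 had higher means. Single markers differed in direction there, and Csf1r was lower by 0.68 (limma adjusted p = 0.0136). Fitted to the 6 osteogenic libraries alone, 5 of the 10 markers passed as lower and 2 as higher, against 13.5% lower and 13.0% higher of all genes tested. Of the 10 markers 7 passed as lower in knockout libraries in adipogenic medium, against 16.5% of all genes tested. Fitted to the 6 adipogenic libraries alone, only 2 passed as lower, against 5.11% of all genes tested. Control adipogenic library 2, with 7013 FPKM of macrophage markers, lay close to knockout library 1 with 6338 FPKM. Fkbp5 was 5.46 FPKM in the former and 29.9 FPKM in the latter, and Tsc22d3 was 11.7 and 43.1 FPKM. Pdk4 was 42.0 and 86.3 FPKM in these libraries, with 17.4 and 19.9 FPKM in the controls that had 16488 and 16918 FPKM of macrophage markers. The other marker lists also moved with genotype, and their part was not tested either. In osteogenic medium the summed level of 5 endothelial markers was 2.55 to 2.68 FPKM in control and 7.18 to 7.63 FPKM in knockout libraries. Under adipogenic induction it was 3.54 to 4.38 against 5.99 to 7.56 FPKM. Of these, Cdh5 and Emcn were higher in knockout libraries in both media, Pecam1 passed as higher in osteogenic medium, and Kdr passed in neither. Fabp4, a fatty acid binding protein gene of adipocytes and macrophages, had 33.7, 35.3 and 36.0 FPKM in the osteogenic controls and 22.1, 22.5 and 19.8 FPKM in the osteogenic knockout libraries. In adipogenic medium it had 12.7, 19.6 and 13.0 FPKM in control and 39.1, 35.2 and 39.2 FPKM in knockout libraries. Its difference was -0.68 and then 1.29 (SE 0.134 each, limma adjusted p = 0.0118 and 9.8e-05), without overlap in either medium. Of 6 osteoblast markers, 1 was lower in osteogenic medium (Runx2), against 4.15% of all genes tested. In adipogenic medium 3 were higher (Runx2, Bglap and Ibsp), against 16.7% of all genes tested. With the 6 adipogenic libraries alone only Ibsp passed, as higher, against 7.87% of all genes tested. Of 6 stromal markers tested, 3 were higher in osteogenic medium, against 4.94% of all genes tested. In adipogenic medium 4 were higher and 1 lower, against 16.7% and 16.5% of all genes tested. With the 6 adipogenic libraries alone 2 were higher and 0 lower, against 7.87% and 5.11% of all genes tested.

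**Figure D4:**
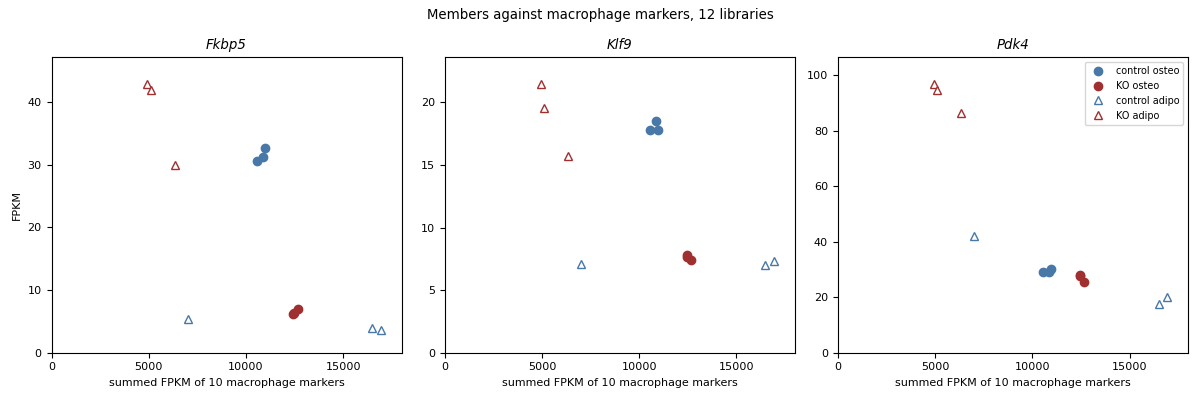
FPKM of Fkbp5, Klf9 and Pdk4 (vertical axes) against the summed FPKM of 10 macrophage markers (horizontal axes) in the 12 libraries; circles are osteogenic and open triangles adipogenic, blue control and red knockout. Most of the sum is Lyz2. Control adipogenic library 2, the blue triangle at 7013, lies at 5.46 FPKM for Fkbp5 beside a knockout library at 29.9.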

How the data were processed

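RNA-seq of MSCs from Chd7fl/fl and Prx1-cre;Chd7fl/fl mice was analysed from 1 deposited table of FPKM with 12 libraries. The authors made the FPKM values before deposit. The submitters' notes name Bowtie 0.12.2 and mm9, whereas the paper's software list names HISAT2 and Ballgown; strand use is not given in the sources used here. Identifiers matched GENCODE M21 on GRCm38 for 54409 of 54532 genes, whose exonic lengths and coordinates are used. With these lengths 98.2% to 98.4% of values under 30 fragments were whole within 0.02 (4% by chance), so fragments could be recovered.

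Genes with at least 1 FPKM in at least 3 libraries (12871) were fitted with limma 3.58.1 in R 4.3.3 on log2(FPKM + 1) with a trend and 4 group means over all 12 libraries. P-values were adjusted by Benjamini-Hochberg over all genes tested, at 0.05. Fold changes are ratios of mean FPKM, and log2 differences understate changes of low genes. The procedure was run on simulated fragments with the same dispersion in all groups and no library that stood apart. That run therefore does not check the fit under the wider spread of the adipogenic libraries. Members and lists were chosen with earlier results of these data known. One listed gene is not reported here. Named genes are the members, Chd7, the listed genes with the smallest adjusted p, paralogs and the 5 genes most like Fkbp5, Nr3c1 and Hsd11b1; Tnf, Cebpb, Nfkbia, Zfp36, Pdk2, Pdk3 and the marker genes were named after their values were seen. Motifs were searched with Python 3.11.15, and figures drawn with matplotlib 3.10.9. Alternatives were a pseudocount of 0.1, no filter, TPM, median-ratio scaling, no trend, the replicate number as a block and each library left out. Added after seeing the data were voom, the 6 libraries of 1 medium alone, and leaving out control library 2 with knockout library 1 of the adipogenic medium.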

Additional observations from a re-analysis of the deposited data

Results flagged for a closer look

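For 7 members every knockout library was below every control library in osteogenic medium and above every control library in adipogenic medium. The same held for 4.00% of all genes tested. For these members the difference between the media was not tested because the genes were chosen with it known, so nothing is read from the count. On the log2(FPKM + 1) scale, knockout minus control was higher in adipogenic than in osteogenic medium by 5.00 for Fkbp5, 3.93 for Tsc22d3, 3.19 for Zbtb16, 2.42 for Klf9, 1.99 for Pdk4, 1.61 for Mt1 and 1.00 for Sgk1.

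By the limma interaction test 26 genes of the other lists had a genotype difference that depended on the medium. Of all genes tested, 10.9% had a positive and 9.58% a negative interaction. By list, 12 of 23 other induced genes, 5 of 12 chaperones, 3 of 12 coregulators and 3 of 14 repressed genes were called. So were 1 of 9 paralogs, 1 of 4 genes of steroid handling and 1 of 4 of metal response. Among genes induced by glucocorticoid the values were 3.22 for Sult1a1, 2.36 for Per1, 1.58 for Ddit4, 1.21 for Cdkn1c, 1.17 for Irs2, 0.80 for Dusp1, 0.78 for Anxa1, 0.48 for Glul, 0.40 for Arrdc2 and 0.39 for Nedd9. They were -1.30 for Angptl4 and -0.84 for Fbxo32, also in this list. Klf13, the paralog of Klf9, had 1.26.

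The chaperones had -0.67 for Ptges3, -0.50 for Hsp90ab1, -0.43 for Dnaja1, -0.39 for Hspa8 and -0.38 for Hsp90aa1. With TPM scaling only 1 of the 12 was called, as negative, and voom called 1 positive and 5 negative. Of the coregulators, Ncoa1 had 0.39, Hdac3 -0.33 and Smarca4 -0.25. TPM scaling and voom each called 3 coregulators positive and 0 negative, so the negative values depend on the scaling. Among repressed genes the values were -1.35 for Mmp9, -1.32 for Il11 and -1.31 for Ptgs2. Abcb1a had -0.48 and Slc30a1 -0.65, and neither was called with TPM scaling.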

How the results depend on the processing

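The 7 members that were lower in osteogenic but higher in adipogenic medium kept both directions under every alternative run, and 3 members were called between the media in all settings but those that left libraries out (3 to 5 with 1 left out; 6 without control adipogenic library 2 and knockout adipogenic library 1). Of the other glucocorticoid-induced genes, 5 were called in osteogenic medium (3 with TPM, 2 with no filter on low values, 2 to 10 with 1 library left out, 13 without both libraries that stood apart, 12 with the 6 osteogenic libraries alone). In adipogenic medium 13 were called (8 to 21 with 1 left out, 21 without both libraries, 6 with the 6 adipogenic libraries alone). For the interaction it was 12 (9 to 17, and 20 without both libraries), and between the media 10 (8 to 18, and 18 without both libraries). Control adipogenic library 2 gave the upper values of 10 and 21. Fits to fewer libraries estimate the spread from those libraries alone. Without both libraries that stood apart, 25.2% of all genes tested were called higher in adipogenic medium, against 16.7% with them. Higher counts in such fits are therefore not read as results about the members or the lists. Averages between the media that changed sign were Zbtb16 with a pseudocount of 0.1 (-0.056) and with voom (-0.40), Klf9 without knockout adipogenic library 1 (0.049) and both (0.050), and Sgk1 without control osteogenic library 3 (0.00079), control adipogenic library 2 (0.091), knockout adipogenic library 2 (0.0033) or both libraries that stood apart (0.079). Deviations of libraries with equal replicate numbers correlated at -0.286 to 0.466. This does not settle whether the numbers pair the libraries, which were fitted as unpaired. With the replicate block 3 members, and 4, 13, 12 and 8 of the other induced genes, were called in the same order. With 1 library left out the Klf9 average ran from -0.058 to 0.049 and that of Sgk1 from -0.074 to 0.091. Depth limits Hsd11b1, Zbtb16 and Mt2, and intervals were not given since fragments are not independent molecules.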
